A study of Rattus norvegicus with 20 samples.

Results

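The transcripts described here encode 9 proteins that hepatocytes, the main cell type of the liver, secrete into blood plasma: albumin (Alb), transthyretin (Ttr), transferrin (Tf), retinol-binding protein 4 (Rbp4), fetuin-A (Ahsg), alpha-1-antitrypsin (Serpina1), the alpha-1-microglobulin and bikunin precursor (Ambp), vitamin D-binding protein (Gc) and vitronectin (Vtn). They were chosen by gene symbol as a family of plasma carriers and related plasma proteins. Of the 32883 genes in the expression table, 8 were members, each with a single row, and all 8 were among the 11869 genes tested. Ahsg levels were not analysed here. RNA came from the livers of 20 male rats, 1 library per rat, in 4 groups of 5. CON rats received 0.5% sodium carboxymethylcellulose (CMC-Na), BGZ_L rats BGZ_L powder at 0.9 g/kg, KYDS rats hydrocortisone at 25 mg/kg, and KYDS+BGZ_L rats hydrocortisone at 25 mg/kg with BGZ_L powder at 0.9 g/kg. KYDS stands for kidney-yang deficiency syndrome, the condition that hydrocortisone was given to model, and the series title names Psoraleae Fructus as the treatment studied. No strain, age or duration of dosing is given in the sources used here.

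Plasma carrier proteins bind small molecules that are poorly soluble, reactive or easily lost in the kidney, and they move them between organs. They are made as precursors with a signal peptide, enter the endoplasmic reticulum as they are translated, pass through the Golgi and leave the hepatocyte without storage. Their genes are read at high rates in adult liver under hepatocyte transcription factors such as the HNF1, FOXA and C/EBP families, and glucocorticoids are among the hormones that act on liver transcription.

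RefSeq promoters on the rat build GRCr8 were matched by symbol for all 9 members, and 4 are printed here as the 250 bases before the start site. Alb and Gc are shown because they also passed in KYDS+BGZ_L against BGZ_L once adjusted for the mitochondrial share, Rbp4 because its levels followed those of Alb most closely, and Tf because its levels followed the other members least. The Alb promoter lies at chr14:17906980-17907229 (minus strand), the Gc promoter at chr14:18916005-18916254 (plus strand), the Rbp4 promoter at chr1:245313552-245313801 (minus strand) and the Tf promoter at chr8:112695377-112695626 (minus strand). Capitals mark matches to an HNF1 motif (GTTAAT) or to a C/EBP motif (TTGCNNA), on either strand.
Alb: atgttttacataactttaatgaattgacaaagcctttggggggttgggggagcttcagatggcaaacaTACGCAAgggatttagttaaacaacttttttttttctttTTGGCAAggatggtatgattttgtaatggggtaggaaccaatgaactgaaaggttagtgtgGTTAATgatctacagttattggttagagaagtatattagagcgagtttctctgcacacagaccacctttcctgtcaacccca
Gc: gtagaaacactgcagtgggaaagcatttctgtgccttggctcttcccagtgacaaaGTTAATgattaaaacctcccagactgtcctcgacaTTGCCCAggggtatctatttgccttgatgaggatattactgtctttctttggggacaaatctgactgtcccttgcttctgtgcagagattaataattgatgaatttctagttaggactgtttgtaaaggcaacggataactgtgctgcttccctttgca
Rbp4: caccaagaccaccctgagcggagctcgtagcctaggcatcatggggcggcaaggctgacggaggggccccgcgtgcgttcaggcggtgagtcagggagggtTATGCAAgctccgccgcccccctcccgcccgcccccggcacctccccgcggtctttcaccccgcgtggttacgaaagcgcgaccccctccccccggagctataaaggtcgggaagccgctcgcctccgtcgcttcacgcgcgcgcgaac
Tf: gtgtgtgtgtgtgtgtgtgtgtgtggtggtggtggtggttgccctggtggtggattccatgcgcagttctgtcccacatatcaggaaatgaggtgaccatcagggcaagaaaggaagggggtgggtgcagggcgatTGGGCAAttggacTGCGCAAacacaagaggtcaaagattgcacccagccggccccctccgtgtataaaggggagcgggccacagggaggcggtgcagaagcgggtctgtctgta
The HNF1 motif was found 82 bases before the start of Alb and 194 bases before that of Gc, in 2 of 9 members, and 6.45% of 33469 rat promoters of this length held it. The C/EBP motif was found in 6 of 9 members, namely Alb, Tf, Rbp4, Gc, Vtn and Ahsg, against 32.2% of promoters. A FOXA motif (TNTTTAC) was found in Serpina1 alone among the members, 74 bases before the start, against 11.6% of promoters. A motif of the glucocorticoid receptor (TGTTCT) was found in Ahsg alone, in 0 of the 8 measured members, against 17.5% of promoters. Ttr and Ambp held none of these 4 motifs in this window. The 4 motifs were searched on both strands, their matches in the members did not overlap, and a match of letters is not evidence of binding.

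Values are given as scaled TPM, that is, the length-scaled abundance known as TPM divided by a factor per library that aligns the bulk of genes between libraries. The unit was read from the values, since the table itself carries no unit, and comparisons of levels between genes rest on that reading. Depth per library is unknown, so no counting error can be given. The share of mitochondrially encoded transcripts differed between the groups: it was 65.6% to 90.1% of TPM in CON, 39.6% to 81.9% in BGZ_L, 19.2% to 68.9% in KYDS and 26.6% to 70.2% in KYDS+BGZ_L. Scaling factors ranged from 0.231 in CON 2 to 2.01 in KYDS 2. In BGZ_L 1, ribosomal RNA genes held 20.6% of TPM, more than in any other library. The carriers moved with the mitochondrial share, and values adjusted for it by a covariate are given below.

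The 8 measured members made up a small part of nuclear TPM (TPM without the mitochondrially encoded genes) in rats without hydrocortisone and a larger part in most rats with it. They held 3.99%, 1.91%, 2.06%, 3.78% and 1.69% of nuclear TPM in CON rats 1 to 5, and 0.616%, 2.03%, 1.35%, 2.19% and 3.07% in BGZ_L rats 1 to 5. The same share was 6.69%, 6.18%, 15.6%, 3.34% and 10.5% in KYDS rats and 11.4%, 4.01%, 3.50%, 11.9% and 8.23% in KYDS+BGZ_L rats. The lowest hydrocortisone rats, KYDS 4 and KYDS+BGZ_L 3, lay inside the CON range, so the groups overlapped. In bulk tissue, fewer hepatocytes and less carrier RNA per hepatocyte cannot be told apart.

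**Figure D1:**
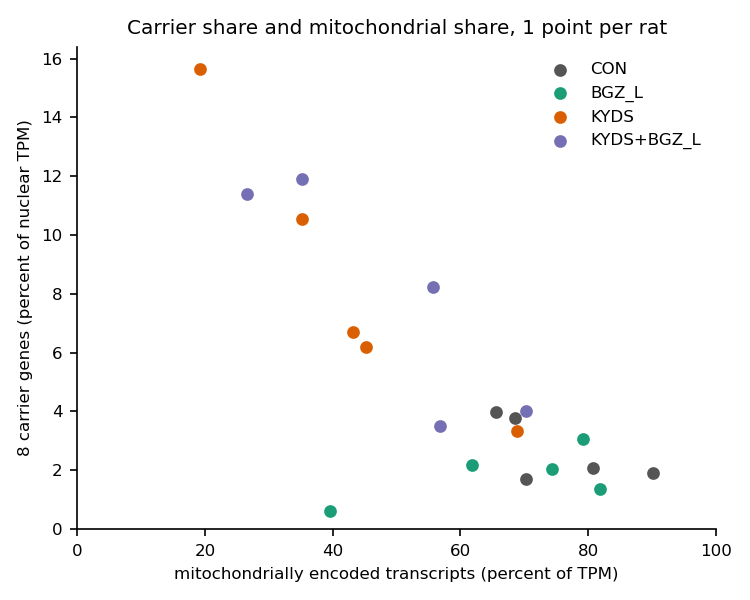
Summed share of the 8 measured carrier genes (percent of nuclear TPM, vertical axis) against the share of mitochondrially encoded transcripts (percent of all TPM, horizontal axis), 1 point per rat, coloured by group. The libraries with the lowest mitochondrial shares were mostly from hydrocortisone rats and had the highest carrier shares, while BGZ_L 1, with 39.6% mitochondrial TPM, had the lowest carrier share (0.616%).

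Alb, the most abundant plasma protein and the carrier of fatty acids, bilirubin and many drugs, was the highest of the 8 measured members in 19 of the 20 libraries, with Tf the highest in BGZ_L 3. In CON rats 1 to 5 the Alb level was 4845, 3627, 1862, 3242 and 3642 scaled TPM, and in BGZ_L rats it was 2588, 1436, 1459, 2302 and 2085. In KYDS rats it was 10190, 6800, 34446, 1926 and 14975, and in KYDS+BGZ_L rats 18521, 4242, 6059, 21567 and 11232. KYDS 4 stood inside the CON range and KYDS 3 far above every other rat, whereas all 5 KYDS+BGZ_L rats lay above all 5 BGZ_L rats. The log2 difference was 1.50 ± 0.59 (SE) for KYDS against CON, which did not pass (limma with Benjamini-Hochberg adjustment, adjusted p = 0.125), and 2.42 ± 0.59 for KYDS+BGZ_L against BGZ_L, which did (adjusted p = 0.0096). The rank of Alb among nuclear genes (median over rats) was 14 in CON and 22 in BGZ_L, and it stood at rank 3 in KYDS and at rank 1 in KYDS+BGZ_L.

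Ttr carries thyroxine and holds the Rbp4 complex in plasma, and it had the largest hydrocortisone difference of the 8 members when both pairs of groups were averaged. Its level was 917, 628, 510, 751 and 663 scaled TPM in CON rats and 776, 1123, 1162, 509 and 945 in BGZ_L rats. It was 2632, 2175, 13483, 1080 and 6893 in KYDS rats and 9627, 1365, 1971, 11542 and 4217 in KYDS+BGZ_L rats. Every KYDS rat exceeded every CON rat, and every KYDS+BGZ_L rat exceeded every BGZ_L rat. Ttr rose by 2.39 ± 0.61 on the log2 scale in KYDS against CON (limma, adjusted p = 0.0302) and by 2.27 ± 0.61 in KYDS+BGZ_L against BGZ_L (adjusted p = 0.0166).

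Rbp4 brings retinol from liver stores to other tissues, bound to Ttr. Its level was 825, 523, 394, 628 and 590 scaled TPM in CON rats and 532, 424, 364, 451 and 583 in BGZ_L rats. It was 1006, 964, 4048, 391 and 1971 in KYDS rats and 3402, 728, 1090, 3696 and 1717 in KYDS+BGZ_L rats. KYDS 4, at 391, lay below the lowest CON rat, while the KYDS+BGZ_L and BGZ_L rats did not overlap. The log2 difference was 1.12 ± 0.51 in KYDS against CON (limma, adjusted p = 0.185, not passing), and Rbp4 rose by 1.92 ± 0.51 in KYDS+BGZ_L against BGZ_L (adjusted p = 0.0148).

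Tf is the iron carrier of plasma. Its level was 710, 887, 734, 686 and 655 scaled TPM in CON rats and 662, 1203, 1636, 758 and 791 in BGZ_L rats. It was 1219, 1113, 4100, 1833 and 2652 in KYDS rats and 2465, 860, 958, 3288 and 1416 in KYDS+BGZ_L rats. The KYDS rats lay above all CON rats, but KYDS+BGZ_L 2, 3 and 5 lay inside the range of the BGZ_L rats, of which BGZ_L 2 and 3 were high. Tf rose by 1.40 ± 0.40 on the log2 scale in KYDS against CON (limma, adjusted p = 0.0465), and its difference of 0.72 ± 0.40 in KYDS+BGZ_L against BGZ_L did not pass (adjusted p = 0.23, 95% interval -0.12 to 1.56). In KYDS 4, where 7 of the 8 members were at their lowest among KYDS rats, Tf was in the middle of the group.

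Gc carries vitamin D metabolites and binds actin released from damaged cells. Its level was 851, 602, 416, 914 and 971 scaled TPM in CON rats and 558, 316, 384, 254 and 452 in BGZ_L rats. It was 1660, 1210, 3090, 659 and 2084 in KYDS rats and 2016, 955, 1181, 3224 and 1964 in KYDS+BGZ_L rats. KYDS 4 again fell among the CON rats, and the KYDS+BGZ_L rats all exceeded the BGZ_L rats. The log2 difference was 1.10 ± 0.40 in KYDS against CON (limma, adjusted p = 0.103, not passing), and Gc rose by 2.17 ± 0.40 in KYDS+BGZ_L against BGZ_L (adjusted p = 0.00257), the smallest p of the 8 members there. Gc was also the 1 member with an unadjusted p under 0.05 in BGZ_L against CON, at -0.92 ± 0.40 (95% interval -1.76 to -0.08, adjusted p = 0.799), with both groups overlapping.

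Serpina1, Ambp and Vtn are plasma proteins with other main roles: Serpina1 inhibits neutrophil elastase, Ambp is cut into the heme and radical scavenger alpha-1-microglobulin and the protease inhibitor bikunin, and Vtn is an adhesion protein that also binds complement and the plasminogen activator inhibitor. Serpina1 was at 1484, 682, 1101, 1337 and 956 scaled TPM in CON rats, 918, 818, 1037, 743 and 1035 in BGZ_L rats, 1651, 1588, 5583, 1042 and 3996 in KYDS rats and 4990, 1582, 1698, 5531 and 3661 in KYDS+BGZ_L rats. Its levels overlapped between KYDS and CON through KYDS 4 and did not overlap between KYDS+BGZ_L and BGZ_L. Its log2 differences were 1.08 ± 0.44 (limma, adjusted p = 0.137) and 1.76 ± 0.44 (adjusted p = 0.011) in these comparisons, so that only the second passed. Ambp was at 1415, 614, 114, 1132 and 859 scaled TPM in CON rats, 672, 223, 210, 456 and 668 in BGZ_L rats, 2002, 1645, 4277, 427 and 3224 in KYDS rats and 3117, 1059, 1414, 3179 and 2662 in KYDS+BGZ_L rats. CON 3, at 114, held the lowest Ambp level of all 20 rats, and the CON rats differed 12.4-fold from lowest to highest, the widest range of the 8 members within CON. Ambp differed by 1.53 ± 0.65 between KYDS and CON (limma, adjusted p = 0.157, not passing) and rose by 2.40 ± 0.65 in KYDS+BGZ_L against BGZ_L (adjusted p = 0.0173). Vtn was at 553, 431, 257, 384 and 377 scaled TPM in CON rats, 313, 271, 507, 393 and 368 in BGZ_L rats, 712, 657, 1459, 328 and 1081 in KYDS rats and 1323, 536, 526, 1502 and 971 in KYDS+BGZ_L rats. Its KYDS+BGZ_L rats lay just clear of the BGZ_L rats, with 526 as the lowest and 507 as the highest. Vtn differed by 0.95 ± 0.38 between KYDS and CON (limma, adjusted p = 0.13, not passing) and rose by 1.29 ± 0.38 in KYDS+BGZ_L against BGZ_L (adjusted p = 0.025).

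**Figure D2:**
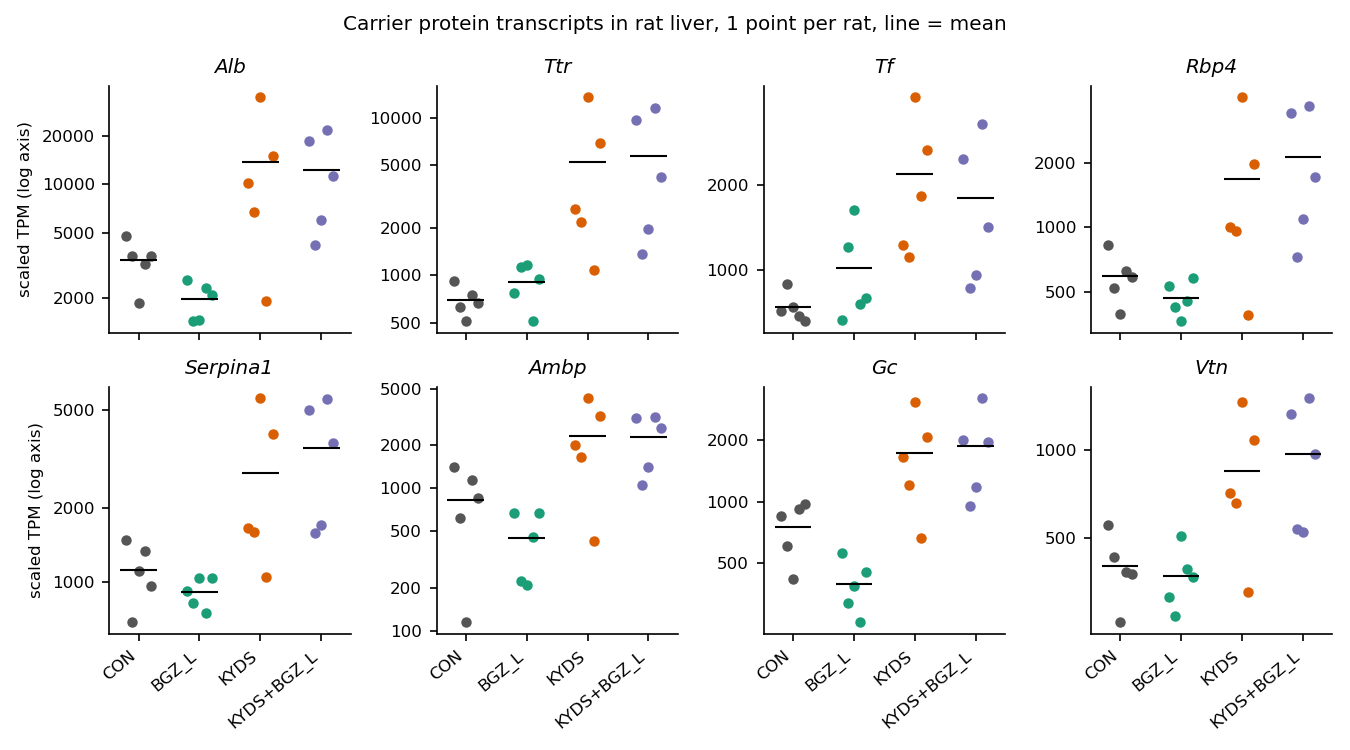
Level of each measured carrier (scaled TPM, log axis, a separate scale per gene) in the 4 groups, with 1 point per rat and a line at the group mean. KYDS 4 is the low point of the KYDS group in every panel except Tf, and KYDS 3 is the high point in all 8.

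Hydrocortisone alone was compared with vehicle to ask how the model itself moved the carriers. Of the 8 members, 2 rose in KYDS against CON, Ttr and Tf, none fell, and 3.25% of the 11869 genes tested rose. The same 2 members had groups that did not overlap, against 3.32% of all genes in that direction. The other 6 members had differences of 0.95 to 1.53 on the log2 scale with adjusted p from 0.103 to 0.185, and all 8 had an unadjusted p under 0.05. That level was also reached by 2856 of the 11869 genes tested (limma). The median member difference was 1.26, against 0.05 over all genes tested. Both calls depended on which libraries were included. The Ttr call ended without CON 1 (adjusted p = 0.0508), CON 2 (0.0686), CON 3 (0.0662), KYDS 3 (0.0861) or KYDS 5 (0.0817). The Tf call ended in 11 of 20 such fits, namely without any 1 of the 5 CON rats (0.0546 to 0.0881), KYDS 3 (0.123), KYDS 5 (0.11), BGZ_L 2 (0.0506), BGZ_L 4 (0.0517), BGZ_L 5 (0.0555) or KYDS+BGZ_L 5 (0.0582). Without KYDS 4, Alb (0.02), Gc (0.031), Vtn (0.0364), Ambp (0.0468) and Rbp4 (0.0497) passed as well, which made 7 of 8.

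Hydrocortisone was also compared among rats that all received BGZ_L. Of the 8 members, 7 rose in KYDS+BGZ_L against BGZ_L, all but Tf, while 8.78% of genes tested rose. The same 7 members did not overlap between groups, against 7.2% of all genes in that direction. The median member difference was 2.05 on the log2 scale, against 0.06 over all genes. Alb, Gc and Serpina1 passed with each of the 20 libraries left out in turn. Without KYDS+BGZ_L 4 the number passing was 3, since Ttr (adjusted p = 0.0579), Rbp4 (0.052), Ambp (0.0509) and Vtn (0.0807) did not pass, and without KYDS+BGZ_L 1 it was 4, since Ttr (0.0567), Rbp4 (0.0505) and Vtn (0.0762) did not. Vtn also did not pass without BGZ_L 2 (0.0607) or KYDS+BGZ_L 5 (0.0533), nor did Ambp without BGZ_L 3 (0.0501). With TPM recomputed over nuclear genes the Vtn call ended (adjusted p = 0.0929), and without both CON 2 and BGZ_L 3 the Ambp call ended (0.057).

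Averaged over BGZ_L, with 10 hydrocortisone rats against 10 others, all 8 members rose, while 17.1% of genes tested rose. This average is made of the comparisons above and shares all their rats. Ttr rose by 2.33 ± 0.43 on the log2 scale (limma, adjusted p = 0.000754), Ambp by 1.96 ± 0.46 (0.00386) and Alb by 1.96 ± 0.41 (0.00188). Gc rose by 1.63 ± 0.28 (adjusted p = 0.000484), Rbp4 by 1.52 ± 0.36 (0.00399) and Serpina1 by 1.42 ± 0.31 (0.00228). Vtn rose by 1.12 ± 0.27 (adjusted p = 0.00424) and Tf by 1.06 ± 0.29 (0.00896). The median was 1.58, against 0.05 over all genes, and all 8 calls held with each library left out in turn. None of the 8 had groups free of overlap, which 0.758% of all genes tested had in that direction, as KYDS 4 or the lowest KYDS+BGZ_L rats reached the range of the others.

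The mitochondrial share moved with these differences and itself differed with hydrocortisone. Its mean was 75.1% in CON and 67.3% in BGZ_L, against 42.4% in KYDS and 48.9% in KYDS+BGZ_L. Adjusting for it can also take out part of a hydrocortisone difference, so the 2 cannot be told apart here. With the log2 ratio of nuclear to mitochondrially encoded TPM as a covariate, 0 of the 8 members passed in the average over BGZ_L (limma), with differences from 0.48 for Rbp4 (adjusted p = 0.519) to 1.29 for Ttr (0.164) and 0.90 for Gc (0.113). With this covariate 0.868% of all genes tested rose in the average, 0.16% in KYDS against CON and 2.54% in KYDS+BGZ_L against BGZ_L, so that few genes of any kind passed. Of the 11869 genes, 95, 4 and 367 fell in the same order with this covariate. For KYDS against CON, 0 of 8 passed with it, and the differences of Alb (-0.04), Rbp4 (-0.23) and Ambp (-0.01) were at or below 0. For KYDS+BGZ_L against BGZ_L, 2 of 8 passed with it, Alb at 1.57 ± 0.43 (adjusted p = 0.0386) and Gc at 1.64 ± 0.33 (0.00844). Across the 20 libraries, with each group centred at its mean, the Alb level and this ratio had Pearson's r = 0.774 (permutation p = 5e-05) and Spearman's rho = 0.767 (permutation p = 0.00022), a single relation tested by 100000 permutations. Leaving out BGZ_L 1 and KYDS 3, whose ratios were farthest from the median, gave r = 0.752 (n = 18). The permutations shuffled centred values across groups of unlike spread, so both permutation p are only approximate. The members are part of the nuclear TPM in this ratio (up to 15.6%, in KYDS 3), so Alb and the ratio are not independent. KYDS 4 and KYDS+BGZ_L 2, which had the lowest summed scaled TPM of the members in their groups, also had the highest mitochondrial shares there, 68.9% and 70.2%. The other groups had no such match. The highest shares were in CON 2 (90.1%) and BGZ_L 3 (81.9%), but the lowest sums were in CON 3 (5388) and BGZ_L 2 (5815).

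**Figure D3:**
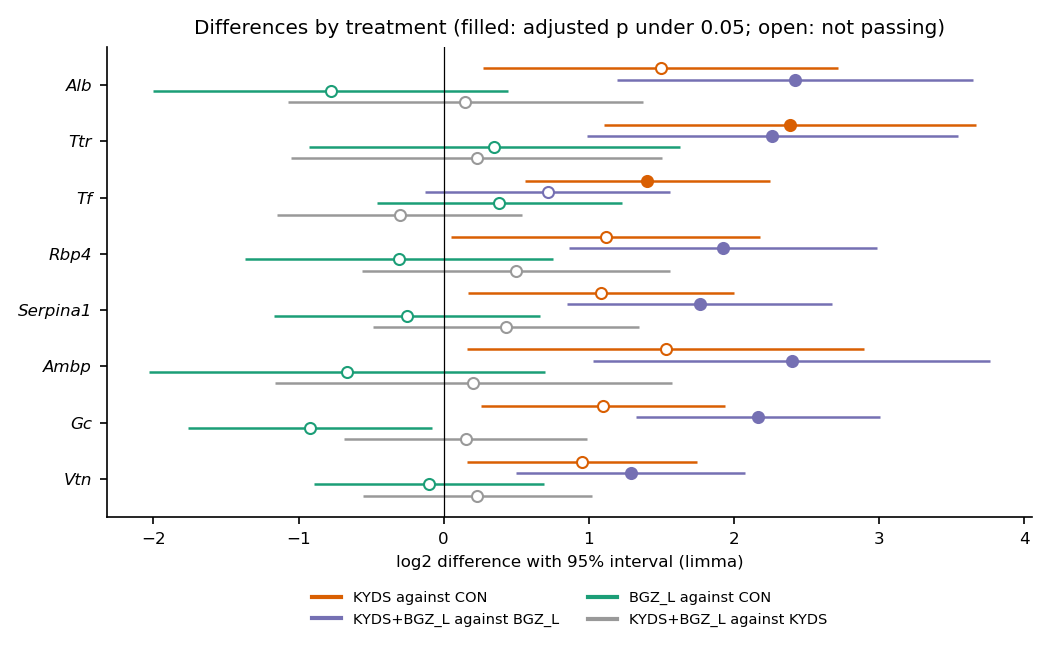
Differences of each carrier on the log2 scale (horizontal axis) with 95% intervals from limma, for 4 comparisons of 5 rats against 5. Filled points have an adjusted p under 0.05, as for Ttr and Tf in KYDS against CON and for all members but Tf in KYDS+BGZ_L against BGZ_L, and no point is filled in the comparisons for BGZ_L.

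BGZ_L itself was examined in rats without and with hydrocortisone. In BGZ_L against CON, 0 of the 8 members passed (limma), 1 had an unadjusted p under 0.05, and 0% of the 11869 genes tested passed, with 715 genes at an unadjusted p under 0.05. The differences ran from -0.92 for Gc and -0.78 ± 0.59 for Alb to 0.35 ± 0.61 for Ttr and 0.38 ± 0.40 for Tf, with a median of -0.28 against -0.01 over all genes. With the covariate the difference was -1.17 for Alb, -1.16 for Gc, -1.06 for Ambp and -0.65 for Rbp4. In that fit 0 of 8 passed (limma), the smallest adjusted p being 0.222 for Gc. When BGZ_L was added to hydrocortisone (KYDS+BGZ_L against KYDS), 0 of 8 passed (limma) and 0 had an unadjusted p under 0.05, while 0.126% of genes passed and 405 had an unadjusted p under 0.05. The differences there ran from -0.30 ± 0.40 for Tf to 0.50 ± 0.51 for Rbp4, and the 95% interval for Alb was -1.08 to 1.37, so that a change of more than 2-fold either way was within it. These intervals do not show that the carriers were the same with and without BGZ_L. Each member's error came from 1 variance shared by all 4 groups. The errors and p of BGZ_L against CON thus also carry the spread of hydrocortisone rats. Alb spanned 2.60-fold in CON and 1.80-fold in BGZ_L, against 17.9-fold in KYDS and 5.08-fold in KYDS+BGZ_L. The other members except Ambp, which was widest in CON (12.4-fold), also spanned more in both hydrocortisone groups. BGZ_L against CON was not tested with the variance of CON and BGZ_L rats alone.

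Whether the hydrocortisone difference itself depended on BGZ_L was tested by the interaction. None of the 8 members passed (limma, 0 with an unadjusted p under 0.05), and 0.0253% of genes tested did, with 447 genes at an unadjusted p under 0.05. The interaction was largest for Gc (1.07 ± 0.57) and Alb (0.93 ± 0.83) and lowest for Tf (-0.69 ± 0.57), with adjusted p of 0.999 for each. With the covariate it was 1.61 for Alb, 1.56 for Ambp, 1.49 for Gc and 1.41 for Rbp4. In that fit 0 of 8 passed (limma), the smallest adjusted p being 0.324 for Gc. The larger number of members passing with BGZ_L than without it is therefore not shown to be a difference between them. Both agents together were compared with vehicle in KYDS+BGZ_L against CON, which shares rats with the comparisons above, and 5 of 8 members rose, while 5.79% of genes tested rose. Ttr was at 2.61 ± 0.61 (adjusted p = 0.0134), Rbp4 at 1.62 ± 0.51 (0.0453), Serpina1 at 1.51 ± 0.44 (0.0325), Gc at 1.25 ± 0.40 (0.0494) and Vtn at 1.19 ± 0.38 (0.048). Alb (adjusted p = 0.0715), Tf (0.0796) and Ambp (0.0873) did not pass. This number ranged from 0 without KYDS+BGZ_L 4 to 7 without KYDS+BGZ_L 2, and Ttr passed in 19 of 20 such fits, the exception being KYDS+BGZ_L 4 (0.0512). With the covariate 0 of 8 passed (limma, adjusted p from 0.333 for Ttr to 0.865 for Ambp), while 0.447% of genes tested rose.

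The order of the group means differed among the members. BGZ_L was lowest and CON next for Alb, Rbp4, Serpina1, Ambp, Gc and Vtn, whereas CON was lowest for Ttr and Tf. KYDS+BGZ_L had the highest mean for Ttr (5744 ± 4594 scaled TPM, SD, n = 5), Rbp4 (2126 ± 1350), Serpina1 (3492 ± 1823), Gc (1868 ± 891) and Vtn (972 ± 445). KYDS had the highest mean for Alb (13667 ± 12556), Tf (2184 ± 1234) and Ambp (2315 ± 1482). The medians went the other way for Alb (10190 in KYDS, 11232 in KYDS+BGZ_L) and Ambp (2002 and 2662). So did their log2 differences for KYDS+BGZ_L against KYDS, 0.15 ± 0.59 and 0.20 ± 0.65. No difference between CON and BGZ_L, or between KYDS and KYDS+BGZ_L, the neighbours in these orders, passed the test for any member. Within KYDS, KYDS 3 held the highest level of all 8 members and KYDS 4 the lowest of 7.

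The make-up of the carriers does not depend on scaling between libraries, and it is given as each gene's percent of the summed TPM of the 8, without a test. Alb held 41.8%, 45.4%, 34.6%, 35.7% and 41.8% in CON rats and 36.9%, 24.7%, 21.6%, 39.2% and 30.1% in BGZ_L rats. It held 48.4%, 42.1%, 48.9%, 25.1% and 40.6% in KYDS rats and 40.7%, 37.4%, 40.7%, 40.3% and 40.3% in KYDS+BGZ_L rats. The KYDS+BGZ_L rats thus had nearly the same Alb share although their Alb levels spanned 5.08-fold. Ttr held 7.61% to 9.46% in CON rats and 8.67% to 19.3% in BGZ_L rats. It held 12.5%, 13.5%, 19.1%, 14.0% and 18.7% in KYDS rats and 21.2%, 12.1%, 13.2%, 21.6% and 15.1% in KYDS+BGZ_L rats, so that the Ttr share of every hydrocortisone rat lay above every CON rat but not above every BGZ_L rat. Its partner Rbp4 held 6.54% to 7.32% in CON and 4.77% to 5.97% in KYDS, which did not overlap, but 5.39% to 8.42% in BGZ_L and 6.17% to 7.48% in KYDS+BGZ_L, which did. Vtn held 4.23% to 5.39% in CON and 2.07% to 4.27% in KYDS. Tf held 6.12%, 11.1%, 13.6%, 7.56% and 7.51% in CON rats and 9.43%, 20.7%, 24.2%, 12.9% and 11.4% in BGZ_L rats. It held 5.79%, 6.89%, 5.82%, 23.8% and 7.19% in KYDS rats and 5.09% to 7.59% in KYDS+BGZ_L rats. The 3 libraries with a Tf share above 20%, BGZ_L 2, BGZ_L 3 and KYDS 4, were the ones with the lowest Alb shares (24.7%, 21.6% and 25.1%). As both are parts of the same sum, a high Tf share by itself tends to lower the Alb share.

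**Figure D4:**
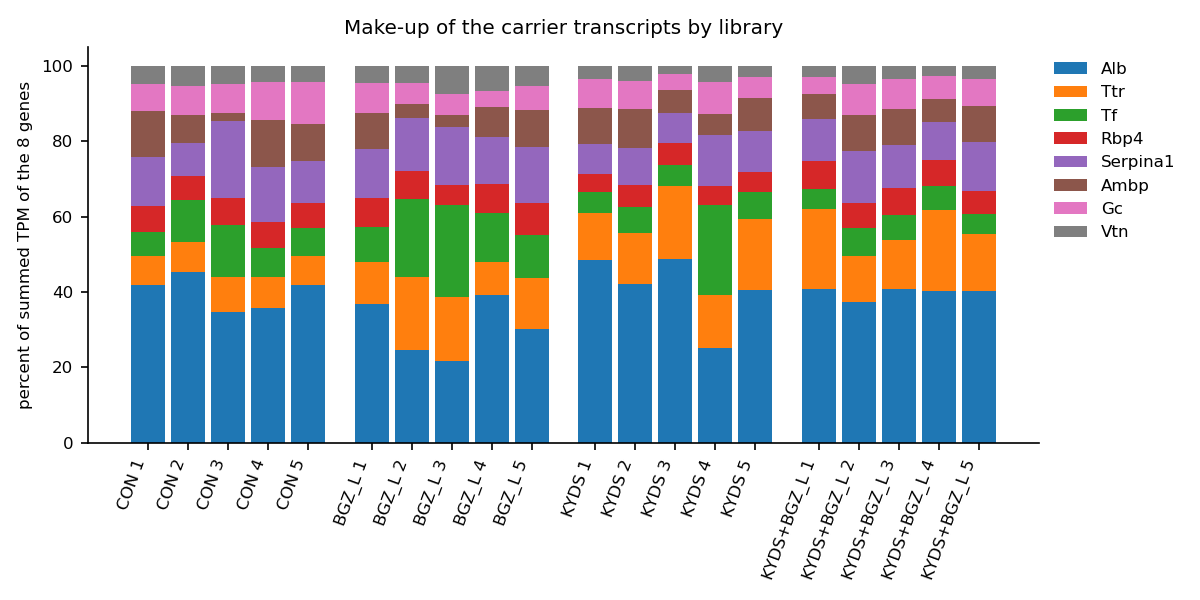
Make-up of the 8 measured carriers in each library (stacked bars, percent of their summed TPM), with 5 rats per group. Alb is the largest segment in all libraries except BGZ_L 3, where Tf is larger, and the Ttr segment is narrow in all 5 CON rats.

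The members' levels varied together across the 20 rats. The pairwise Pearson correlation of log2 levels ran from 0.523 (Tf and Ambp) to 0.971 (Alb and Rbp4), with a median of 0.903 over 28 pairs. With each group centred at its mean it ran from 0.196 to 0.968, with a median of 0.836, so the shared variation was present among rats given the same agents. The 6 lowest of the 28 pooled values all involved Tf. These libraries differ in mitochondrial share, and their depth is unknown, so the correlations are a description.

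The 8 genes outside the family whose log2 levels followed the members' mean standardised profile most closely were named by their correlation with it. The closest was Rarres2 (r = 0.992 over 20 libraries), which encodes chemerin, followed by Timd2 (0.989), Apoc3 (0.984), an apolipoprotein, and C8g (0.982), a lipocalin subunit of complement C8. Next came Fgg (0.98), the gamma chain of fibrinogen, Vkorc1 (0.977), which recycles vitamin K, the heme carrier Hpx (0.976) and the lipoprotein enzyme Pon1 (0.972). Rarres2 differed by 1.90 ± 0.57 on the log2 scale in KYDS against CON (limma, adjusted p = 0.0535, not passing) and rose by 2.53 ± 0.57 in KYDS+BGZ_L against BGZ_L (0.00688). All 8 rose in KYDS+BGZ_L against BGZ_L, and only Vkorc1 passed in KYDS against CON (1.77 ± 0.52, adjusted p = 0.0474). These 8 genes were chosen on the same 20 libraries, group differences included, so their differences describe the choice and are no separate result. With the covariate 0 of them passed in KYDS against CON and 7 in KYDS+BGZ_L against BGZ_L, all but Pon1 (adjusted p = 0.065).

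Other plasma carrier and transport proteins, a list of 22 genes of which 18 were tested, rose in part. In KYDS against CON 1 of 18 rose, none fell, and the median was 0.59, while 3.25% of all genes tested rose, 3.02% fell and their median was 0.05. That gene was Orm1, an acute-phase carrier of basic drugs, which rose by 2.25 ± 0.54 on the log2 scale (limma, adjusted p = 0.0226), from 109 to 684 scaled TPM in group means. Among rats given BGZ_L, in KYDS+BGZ_L against BGZ_L, 7 of 18 rose and none fell, with a median of 0.92, while 8.78% of all genes tested rose, 8.51% fell and their median was 0.06. Among them Orm1 rose by 2.86 ± 0.54 (adjusted p = 0.00276), the hemoglobin binder Hp by 2.55 ± 0.62 (0.0098), the corticosteroid-binding globulin gene Serpina6 by 1.93 ± 0.59 (0.0291) and the hyaluronan-binding inter-alpha-inhibitor chain Itih3 by 1.04 ± 0.33 (0.0356). Leaving out 1 library at a time, Orm1 passed in 17 of 20 fits in the first comparison, and Serpina6 passed in 15 and Itih3 in 13 in the second. After adjustment for mitochondrial share the counts were 0 and 2 of 18.

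Receptors and uptake of carriers, the genes that recycle or take up such proteins, gave few calls, and in so short a list these counts lay near the all-gene shares. Over all genes tested, 3.25% rose in KYDS against CON and 8.78% in KYDS+BGZ_L against BGZ_L. In KYDS against CON 0 of 8 tested passed (limma), and 4 had an unadjusted p under 0.05, as had 2856 of the 11869 genes tested. The smallest p was that of the endocytic receptor Lrp1 (0.84 ± 0.33, limma, adjusted p = 0.12). The 1 gene of 8 that rose in KYDS+BGZ_L against BGZ_L was Asgr1, a subunit of the asialoglycoprotein receptor that clears plasma glycoproteins (1.21 ± 0.40, adjusted p = 0.0406), and its call held in 14 of 20 fits with 1 library left out. It ended with the covariate (0.73, adjusted p = 0.239). The medians were 0.79 and 0.57, against 0.05 and 0.06 over all genes.

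Secretory pathway machinery, the genes that move nascent proteins through the endoplasmic reticulum, had positive differences in 22 of the 25 genes tested in each of these comparisons, while 53.3% of all genes tested had one in KYDS against CON and 53.7% in KYDS+BGZ_L against BGZ_L. In KYDS against CON 1 of 25 rose, the chaperone Hspa5 (1.21 ± 0.36 on the log2 scale, limma, adjusted p = 0.0492), while 3.25% of all genes rose, and the median was 0.82. Hydrocortisone in rats given BGZ_L (KYDS+BGZ_L against BGZ_L) gave 13 of 25 that rose and 1 that fell, with a median of 1.07, while 8.78% of all genes rose and 8.51% fell. The channel subunit Sec61a1 rose by 1.73 ± 0.42 (adjusted p = 0.00921), the lectin chaperone Calr by 1.69 ± 0.50 (0.0258) and the channel subunit Sec61g by 1.00 ± 0.34 (0.0496). The gene that fell was Sec24a, a cargo adaptor of COPII vesicles (-2.03 ± 0.44, adjusted p = 0.00552). After adjustment for mitochondrial share, 0 rose in the first comparison, and 2 rose and 1 fell in the second. The same fit had 302 of all 11869 genes higher and 367 lower in the second comparison. Hspa5 passed in 5 of 20 fits with 1 library left out, Calr in 18 and Sec61g in 5.

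Hepatocyte transcription factors went both ways. Of 17 tested, 2 rose in KYDS against CON, Creb3l3 (1.34 ± 0.38 on the log2 scale, limma, adjusted p = 0.0447), a membrane-bound factor cut and released in the secretory pathway, and Foxa3 (1.12 ± 0.29, 0.033), while 3.25% of all genes rose. Among KYDS+BGZ_L against BGZ_L differences, 4 rose and 3 fell, while 8.78% of all genes rose and 8.51% fell. Foxa2, a pioneer factor of liver enhancers, rose by 1.72 ± 0.38 (adjusted p = 0.00636), and Creb3l3 rose by 1.23 ± 0.38 (0.0324). Prox1 differed by -2.74 ± 0.68 (0.0107) and the circadian factor Dbp by -4.37 ± 0.38 (1.54e-06), both lower. With 1 library left out, Creb3l3 passed in 9 of 20 fits in the first comparison and 15 in the second, and Foxa3 in 14. The covariate fit gave 0 calls in the first comparison, and 1 higher and 3 lower in the second. Of all 11869 genes, 302 were higher and 367 lower in that second comparison with the covariate.

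Retinol and thyroid hormone handling, the genes on the other side of Ttr and Rbp4, had calls in both directions with hydrocortisone in rats given BGZ_L. Of 8 tested genes described here, 0 passed in KYDS against CON (limma), with 2 at an unadjusted p under 0.05, against 2856 of the 11869 genes tested. The smallest p was that of Dio1, the deiodinase that activates thyroxine in liver (1.06 ± 0.46 on the log2 scale, limma, adjusted p = 0.166). The comparison KYDS+BGZ_L against BGZ_L had 3 that rose and 2 that fell, while 8.78% of all genes tested rose and 8.51% fell. Dio1 rose by 2.44 ± 0.46 (limma, adjusted p = 0.0028), and the retinol dehydrogenase Rdh10 rose by 1.04 ± 0.36 (0.0493). The thyroid hormone-responsive lipogenic gene Thrsp was lower by -1.83 ± 0.35 (0.00304) and the thyroid hormone receptor Thrb by -1.43 ± 0.40 (0.0203). The list medians were 0.09 and 0.04. With 1 library left out, Rdh10 passed in 7 of 20 fits and Thrb in 17 in the second comparison. With the covariate, 1 rose and 1 fell there, while 302 of all 11869 genes rose and 367 fell.

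Hepatocyte genes that are not plasma proteins, enzymes of the same cell type, gave few calls, and in so short a list these counts lay near the all-gene shares. Over all genes tested, 3.25% rose and 3.02% fell in KYDS against CON. The shares were 8.78% and 8.51% in KYDS+BGZ_L against BGZ_L. Of 16 tested, 1 rose in KYDS against CON, Bhmt of methionine metabolism (1.53 ± 0.34 on the log2 scale, limma, adjusted p = 0.0174), and 1 fell, Hpd of tyrosine breakdown (-0.96 ± 0.24, 0.0289). The comparison KYDS+BGZ_L against BGZ_L had 0 that rose (limma) and 2 that fell, Hpd (-1.04 ± 0.24, adjusted p = 0.00812) and the tyrosine aminotransferase Tat (-0.86 ± 0.27, 0.0345). The medians were 0.28 and -0.04, against 1.26 and 2.05 for the measured carriers. Without scaling between libraries, the Hpd difference in KYDS against CON was 0.41, with the opposite sign, and in KYDS+BGZ_L against BGZ_L Hpd was at -0.20 and Tat at -0.03. With the covariate the calls of Bhmt (limma, adjusted p = 0.267) and Hpd (0.629) in KYDS against CON ended. In the other comparison 2 of 16 fell with it, while 367 of all 11869 genes fell. With 1 library left out, Hpd passed in 15 of 20 fits in KYDS against CON. In KYDS+BGZ_L against BGZ_L Hpd passed in 20 of 20 and Tat in 13.

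Markers of other cells are given beside these groups, as the sum of scaled TPM over each list. The 7 of 8 sinusoidal endothelium markers in the table summed to 67.2 to 114 in CON, 65.8 to 143 in BGZ_L, 44.1 to 59.7 in KYDS and 42.3 to 61.1 in KYDS+BGZ_L, and thus did not overlap between rats with and without hydrocortisone. That difference lay in Ptprb, a phosphatase of endothelial junctions, the 1 of 7 that fell in each comparison, from 35.7 in CON to 8.72 in KYDS and from 50.8 in BGZ_L to 6.45 in KYDS+BGZ_L (means). The other 6 markers summed to 41.6 to 57.7 in CON, 33.5 to 57.2 in BGZ_L, 41.0 to 47.6 in KYDS and 40.4 to 48.3 in KYDS+BGZ_L, which overlapped, a sum chosen after the Ptprb values were seen. The 7 lymphocyte markers summed to 5.72 to 20.7 in CON, 10.9 to 21.8 in BGZ_L, 3.44 to 7.09 in KYDS and 2.45 to 6.09 in KYDS+BGZ_L, and the 1 of 3 tested that fell in each comparison was the pan-leukocyte gene Ptprc. The 9 Kupffer cell and macrophage markers summed to 51.4 to 87.1 in CON, 53.6 to 654 in BGZ_L, 78.0 to 201 in KYDS and 61.0 to 210 in KYDS+BGZ_L. Of these 9, Cd163 rose in KYDS against CON (1.84 ± 0.40 on the log2 scale, limma, adjusted p = 0.0151), and none fell. In KYDS+BGZ_L against BGZ_L, Cd163 (1.36 ± 0.40, limma, adjusted p = 0.0258) and Lyz2 (1.16 ± 0.38, 0.0412) rose, and none fell. The 6 cholangiocyte markers ranged from 2.17 to 38.1 over all rats, the 7 stellate cell and fibroblast markers from 16.9 to 58.1, and 6 of 7 erythroid markers from 628 to 6947. In each of these comparisons 1 of 6 stellate cell and fibroblast markers tested rose and none fell, and no cholangiocyte or erythroid marker passed. Over all genes tested, 3.25% rose and 3.02% fell in KYDS against CON. The shares were 8.78% and 8.51% in KYDS+BGZ_L against BGZ_L. The 4 pancreas markers in the table summed to 9.07 to 18.4 in CON, 19.6 to 36.7 in BGZ_L, 13.1 to 45.8 in KYDS and 30.7 to 46.5 in KYDS+BGZ_L, with Ins2 at 0 in every library, and the 4 kidney markers to at most 1.86. The part of other cells in the carrier differences was not tested.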

How the data were processed

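RNA from 20 rat livers was sequenced, with total RNA extracted by Trizol, treated with DNase I and made into TruSeq libraries, of which read 1 was used, per the labels' protocols. Neither aligner nor counter is given in the sources used here. Mouse builds (GRCm38, mm10, GRCm39) appear in the submitters' processing notes, although the genes carry rat Ensembl identifiers, so the build behind the values is unknown. The values deposited by the authors were read as TPM, because they have decimals and sum to 914343 to 983962 per library, although the deposited file calls them raw counts. No count test was therefore applied.

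Here TPM was scaled by a trimmed mean of log ratios (30% of ratios and 5% of levels trimmed). A gene was tested, as log2(scaled TPM + 0.5), if its scaled TPM reached 0.5 in 5 or more libraries, which left 11869 genes. Fold changes on this scale understate differences of low genes. All 4 groups entered 1 limma model (version 3.58.1, R 4.3.3, data.table version 1.17.8, trended and robust prior, 16 residual degrees of freedom), two-sided, with Benjamini-Hochberg adjustment over all genes tested and a threshold of 0.05. Errors after ± are standard errors for differences and SDs for means. The script was tested on simulated data. Figures were drawn with Python 3.11.15 and matplotlib 3.10.9.

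No 2 libraries were identical (highest correlation 0.959). Whether replicate numbers pair rats across groups was checked: 7 of 30 same-numbered pairs in different groups had a correlation of deviations above 0.1 (-0.46 to 0.33), and only 2 of 20 libraries were closest to one of their own number, so the main model had no block. The members and the gene lists were chosen with earlier results of these data known. A gene of the retinol and thyroid hormone list is not reported here, and its counts and medians are over the other genes. All measured members are named. From each list, up to 2 genes with the largest and up to 2 with the smallest average hydrocortisone difference among those passing were named in each of KYDS against CON and KYDS+BGZ_L against BGZ_L, or the 1 with the smallest p where none passed. Genes similar to the members were the 8 with the highest Pearson correlation with their mean standardised log2 level. Alternatives changed the scaling, the pseudocount, the filter, a covariate, the block and the libraries included.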

Additional observations from a re-analysis of the deposited data

Results flagged for a closer look

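In 2 of 64 groups of 5 rats checked, 1 rat stood apart from the other 4 by Dixon's test at the 95% level. Chance gives about 1 in 20 groups. Tf made up 23.8% of the 8 carriers' summed TPM in KYDS 4, against at most 7.19% in the other KYDS rats, a gap of 0.922 of the group's range. KYDS 4 also had the highest mitochondrial share of its group (68.9%). Alb made up 37.4% in KYDS+BGZ_L 2, against at least 40.3% in the other KYDS+BGZ_L rats, a gap of 0.863 of a narrow range. KYDS+BGZ_L 2 had the highest mitochondrial share of its group (70.2%). The part of the mitochondrial share in both values was not tested.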

How the results depend on the processing

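Averaged over BGZ_L, 8 of 8 members rose under every alternative run except the covariate (0). In KYDS against CON the main count of 2 members became 8 without scaling, 1 with median-ratio scaling or nuclear TPM, and 0 with no filter, with the covariate or without CON 2 and BGZ_L 3, and it ran from 0 to 7 with 1 library left out. In KYDS+BGZ_L against BGZ_L the 7 became 2 with the covariate, 6 with nuclear TPM (Vtn lost) or without CON 2 and BGZ_L 3 (Ambp lost), and 3 to 7 with 1 library left out. In KYDS+BGZ_L against CON the 5 became 8 without scaling, 3 with median-ratio scaling or a pseudocount of 2, 1 with nuclear TPM, with no filter or without CON 2 and BGZ_L 3, 0 with the covariate, and 0 to 7 with 1 library left out. The replicate block, though the numbers do not pair the rats, gave 1 member in KYDS against CON and 2 in KYDS+BGZ_L against CON.

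Over all genes, the 744 passing in KYDS against CON became 5933 without scaling (5867 higher, 66 lower), 116 with nuclear TPM, 367 with no filter, 23 with the covariate, 256 without CON 2 and BGZ_L 3, and 224 to 1075 with 1 library left out. The 2052 in KYDS+BGZ_L against BGZ_L became 635 with nuclear TPM, 669 with the covariate, 1362 without CON 2 and BGZ_L 3, and 1102 to 2517 with 1 library left out, while no scaling gave 2042 (1809 higher, 233 lower) in place of 1042 higher and 1010 lower. The 1364 in KYDS+BGZ_L against CON became 167, 877 (no filter), 89, 765 and 388 to 1611 in the same order. The 3706 averaged over BGZ_L became 7259 without scaling (6909 higher, 350 lower), 1886 with nuclear TPM and 198 with the covariate. The 15 in KYDS+BGZ_L against KYDS became 4 without scaling, 2 with nuclear TPM and 6 to 19 with 1 library left out. The 0 in BGZ_L against CON became 1 with the covariate or without CON 2 and BGZ_L 3, and 0 to 3 with 1 library left out. The 3 of the interaction became 0 without scaling or with nuclear TPM, 1 without CON 2 and BGZ_L 3, and 2 to 5 with 1 library left out. The all-gene median without scaling was 1.03 in KYDS against CON, 0.63 in KYDS+BGZ_L against BGZ_L and 0.82 in their average.

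For the carriers, signs turned only in comparisons where that member had not passed. In KYDS+BGZ_L against KYDS, no scaling gave -0.29 for Alb, -0.21 for Ttr, -0.0049 for Serpina1, -0.23 for Ambp, -0.28 for Gc and -0.20 for Vtn, and nuclear TPM gave -0.11 for Alb, -0.031 for Ttr, -0.053 for Ambp, -0.11 for Gc and -0.024 for Vtn. With 1 library left out the range was -0.42 to 0.62 for Alb, -0.20 to 0.71 for Ttr, -0.32 to 0.51 for Ambp, -0.15 to 0.40 for Gc and -0.066 to 0.47 for Vtn, and -0.25 to 0.029 for Vtn in BGZ_L against CON. The covariate gave -0.042 for Alb, -0.23 for Rbp4 and -0.014 for Ambp in KYDS against CON. The interaction was -0.19 for Vtn without scaling. For Ttr it was 0.48 with the covariate, 0.049 without CON 2 and BGZ_L 3, and -0.55 to 0.36 with 1 library left out. The cause of these shifts was not tested.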
